A study of Mus musculus with 12 samples.

Results

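A set of 448 genomic regions had a FoxP3 peak among the highest pileups of every library of the study, in cells with wild-type FoxP3 (WT) and in cells with FoxP3 carrying the substitution A384T. Each of the 6 peak lists was reduced to its 1600 peaks of highest pileup on chromosomes 1 to 19, peaks of different lists sharing 1 bp or more were merged into a region, and the members are the regions with a peak in all 3 WT and all 3 A384T lists. The reduced lists joined into 3289 regions, so the members are 13.6% of them. The members were thus chosen by pileup and by presence in the lists, which are description here, without a test. All positions are in mm9, the build named in the submitters' processing notes.

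FoxP3 is the forkhead transcription factor that defines regulatory T (Treg) cells, the CD4+ T cells that restrain immune responses. It binds DNA through its forkhead domain and acts together with other DNA-binding factors at sites that are largely open in T cells before FoxP3 appears. A384T changes the forkhead domain and has been found in patients with IPEX, an inherited disease of missing Treg function. In ChIP-seq, chromatin is fixed and sheared, fragments held by the factor are collected with an antibody and sequenced, and a peak is a place where fragments pile up above a control library.

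There were 3 ChIP libraries for each genotype, WT (FoxP3WT:hCD2 mice) and A384T (FoxP3A384T:hCD2 mice), both on C57BL/6J and both with the human CD2 reporter by which CD4+ cells of spleen and lymph nodes were sorted magnetically. The cells were freshly isolated and untreated, and the same rabbit polyclonal antibody to FoxP3 was used throughout. The labels give no age or sex and name 6 input libraries that were not analysed here as samples. They do not say whether replicates came from separate animals or pools, so any p-value below reflects variation among these 6 libraries alone, which may be technical. Where values of 3 libraries are listed they are in the order of their replicate numbers. Unique ChIP tags ran from 17520951 to 25386770 per library, and tag length was 51 bp for replicate 1 of both genotypes and 49 bp for the other 4 libraries. Peak lists hold no marker of cell type, so the Treg label could not be checked on them.

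Most of the regions of the reduced lists were not shared so widely. A single list held 1103 regions (33.5%), 583 were in 2 lists, 463 in 3, 333 in 4 and 359 in 5. Of the 359 regions that missed only 1 list, 182 missed A384T replicate 1 and 90 missed WT replicate 2. All 182 had a weaker peak in the full A384T replicate 1 list, at a median rank of 2655, whereas none of the 90 had one in the full WT replicate 2 list. That list has 1670 peaks on these chromosomes, of which the rule kept 95.8%, against 7.91% of the 20218 peaks of WT replicate 1. The last peak kept had a pileup of 113, 26.4 and 42 in WT and of 111, 60.6 and 33 in A384T, and the first peak left out was tied with it in every list. Just inside the limit lay chr5:121556884-121557593, ranked 1599 in A384T replicate 1, chr1:173893636-173894226, ranked 1590 in the same list, and chr6:48646941-48647525, ranked 1589 in WT replicate 1. Just outside lay chr8:129186646-129187122, ranked 1605 in A384T replicate 3, chr9:13246441-13247362, ranked 1607 in A384T replicate 1, and chr10:40068304-40069340, ranked 1609 in A384T replicate 2.

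Pileup, the number of ChIP fragments over the summit after the authors' scaling, differed widely between libraries of one genotype. Its median over the members was 180 in WT replicate 1, 60.7 in WT replicate 2 and 76 in WT replicate 3. In A384T it was 156 in replicate 1, 106 in replicate 2 and 60 in replicate 3. Both replicate 1 libraries thus lay above the rest, and the WT and A384T values overlapped. Fold enrichment, the authors' ratio of ChIP pileup to the local control background, had medians of 35.0, 13.1 and 17.0 in WT and of 33.7, 23.0 and 12.7 in A384T. Every library gave at least 5-fold enrichment at 434 members (96.9%) and at least 10-fold at 243 (54.2%). Each list has a scale of its own, and these levels were not compared between genotypes.

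Pileup also has an upper limit in these files. The authors kept 1 tag per position and strand, so a summit cannot hold more fragments than 2 times the fragment length, multiplied by the scaling towards the control. This limit was 300 in WT replicate 1 and 298 in A384T replicate 1, and the highest peak of each full list reached it exactly. In WT replicates 2 and 3 and A384T replicates 2 and 3 it was 218, 264, 256 and 246. The members' median stood at 59.8% of the limit in WT replicate 1 and 52.3% in A384T replicate 1, and at 24.4 to 41.5% in the other 4 libraries. In WT replicate 1, 17 members reached 90% of the limit, in A384T replicate 1 it was 11, in A384T replicate 2 it was 1 and in the other libraries 0.

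**Figure D1:**
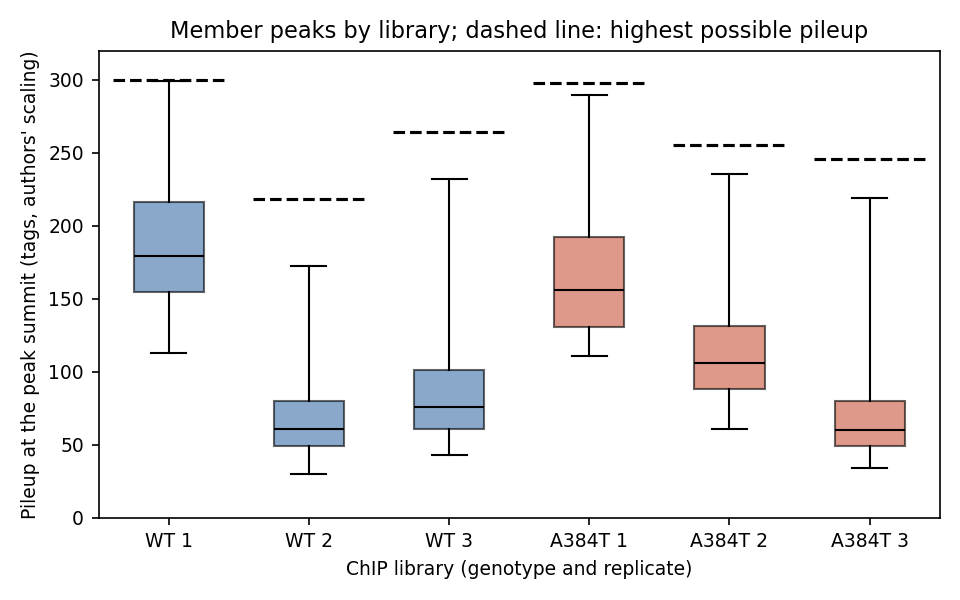
Pileup at the summit of the strongest peak of each of the 448 members, by ChIP library (boxes: quartiles with the median; whiskers: lowest and highest; blue WT, red A384T). Dashed lines mark the highest pileup that 1 tag per position and strand allows; the whisker of WT replicate 1 ends at 299, just under its limit of 300.

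A small core ranked near the top of every list. Of the members, 18 (4.02%) were among the 100 strongest peaks of each library and 136 (30.4%) among the 500 strongest. Of the 18, 6 lay on a high control background, described below, with fold enrichment of 1.73 to 9.99. The best-ranked was chr14:54846770-54848043, a region of 1274 bp, with pileups of 292, 151 and 197 in WT and of 286, 236 and 180 in A384T. Its rank was between 7 and 21 in every list, its 6 summits lay within 16 bp, and its position among the members was 5 to 7.5 in WT and 1 to 3 in A384T. At chr9:123626470-123627046 the pileup was 299, 172 and 189 in WT and 288, 227 and 136 in A384T. It was the strongest of all peaks in WT replicate 2 and ranked 43 in A384T replicate 3. At chr3:27052616-27053292 fold enrichment was 61.1, 27.5 and 41.0 in WT and 54.6, 48.4 and 27.2 in A384T, with ranks by pileup of 19 to 54. Next came chr8:114119491-114120128, with folds of 62.0, 24.5 and 44.0 in WT and 48.9, 38.3 and 26.9 in A384T. In both regions the groups overlapped and replicate 1 had the highest fold of its genotype.

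The other members among the 10 of best mean rank were of more than one kind. At chr6:99472165-99473290 fold enrichment was 50.6, 19.96 and 25.6 in WT and 57.1, 37.5 and 38.8 in A384T, and its positions by fold, but not by pileup, were higher in every A384T library. At chr9:61555455-61556086 it was 40.6, 21.7 and 30.2 in WT and 48.8, 61.1 and 46.9 in A384T. Every A384T library lay above every WT library on the fold itself, but each list has a scale of its own. Ranked by fold among the members the 2 genotypes overlapped, whereas ranked by pileup they did not. The region chr10:13702076-13703835 was 1760 bp long, the width of its WT replicate 1 peak, with peaks of 313 to 691 bp in the other libraries. At this region fold enrichment was 30.2, 38.1 and 34.7 in WT and 48.9, 32.2 and 10.6 in A384T. Its rank by pileup was 6, 7 and 45 in WT and 21, 78 and 88 in A384T. The remaining 3 of the 10 had a high control background as well as a high pileup.

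High control background set 10 members (2.23%) apart from the other 438. The background was computed per peak from pileup and fold enrichment, and its median over the 6 libraries was 3.73 over all members. It was at most 10.1 in the 438 and between 25.1 and 103 in the 10, with no member in between; the limit of 20 used to separate them was set after these values were seen. Fold enrichment in the 10 ran from 1.73 to 9.99. The 6 lists were made against 6 different control libraries, and the background was 20 or more at 9 to 10 members in each of them. In WT replicate 1, 49 of the 1150 other peaks of the reduced list had a background this high, against 9 members. In WT replicate 3 and the A384T libraries 32 to 43 other peaks did, against 9 to 10 members. In WT replicate 2 only 1 of 1134 other peaks did, against 10 members. Such peaks were thus not particular to the shared set except in WT replicate 2, where nearly all of them were members.

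The strongest case was chr16:57391221-57391767. Its control background was 62.6, 51.0 and 127 in WT and 150, 106 and 100 in A384T. Fold enrichment there was 4.45, 2.69 and 1.81 in WT and 1.73, 1.82 and 2.18 in A384T, the lowest median position by fold of all members, while its rank by pileup was 4 to 40. A group of 3 on chromosome 8 followed the same pattern: chr8:19784467-19785130 had folds of 3.75 to 6.43, chr8:20020064-20020546 had 3.64 to 5.58 and chr8:19892636-19893280 had 5.59 to 9.99. A further one on that chromosome, chr8:15519736-15520163, had a fold of 2.62 to 4.37 at a background of 35.7 to 66.3. At chr18:68851671-68852016 the fold was 2.55 to 3.50 and at chr6:145881231-145881595 it was 2.51 to 4.09. The other 3 were chr15:47371473-47371745, the shortest member at 273 bp, with 2.59 to 3.47, chr2:20821437-20821876 with 3.40 to 4.71 and chr11:34495156-34495830 with 3.39 to 7.53. In all 10 the ranges of WT and A384T positions by pileup overlapped. What raises the control at these places was not tested.

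**Figure D2:**
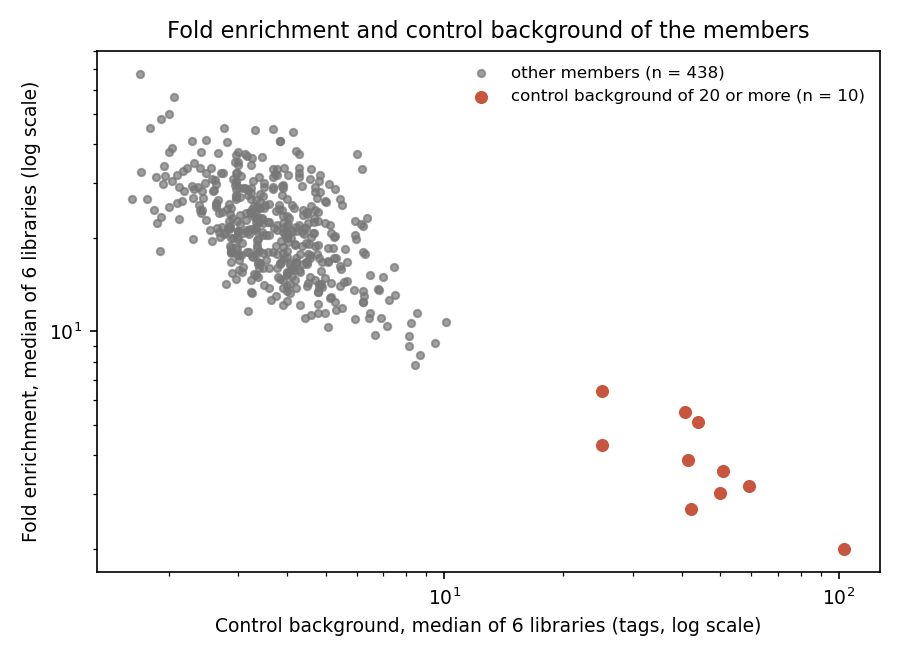
Each point is 1 of the 448 members, with the median over 6 libraries of the control background (tags) on the horizontal and of fold enrichment on the vertical axis, both logarithmic. The 10 members in red lie at a background of 25.1 or more, apart from the 438 others at 10.1 or less.

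The order of the members by pileup was on average more alike within a genotype than between genotypes in these libraries. The Spearman correlation over the 448 members averaged 0.72 over the 6 pairs of libraries of one genotype (0.66 to 0.83) and 0.54 over the 9 pairs between genotypes (0.36 to 0.69). The difference was 0.186, and since pileup chose the members it is a description with no test. Between genotypes, pairs of the same replicate number averaged 0.64 and pairs of different numbers 0.48. The ranges within and between genotypes overlapped, because WT replicate 1 and A384T replicate 1, the libraries of 51 bp tags, reached 0.69. Within the 49 bp libraries the correlation averaged 0.80 over the 2 pairs of one genotype and 0.59 over the 4 mixed pairs, and the 51 bp libraries gave only that 1 pair. These are correlations across regions, which are not independent replicates. Without the 10 members of high control background the difference was 0.198, and by fold enrichment in place of pileup it was 0.0963. Over the 953 regions present in all 6 full lists, which include the members, the difference by pileup was 0.143. It was therefore not particular to the members.

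**Figure D3:**
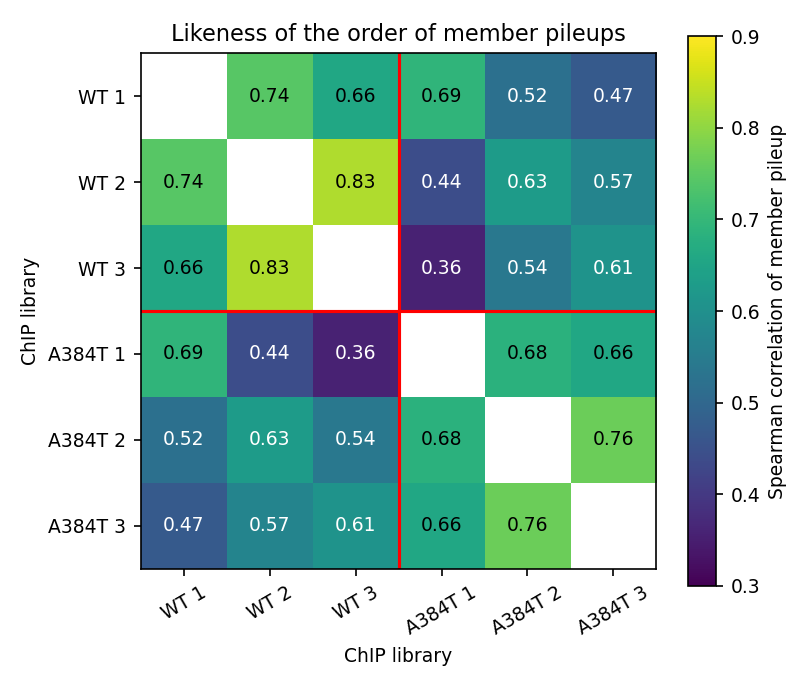
Spearman correlation of pileup over the 448 members for each pair of ChIP libraries; red lines divide WT from A384T. The blocks of one genotype hold values of 0.66 to 0.83 and the block between genotypes 0.36 to 0.69, with its highest value for the pair of replicate 1 libraries.

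For the order of single regions each member was given its position among the 448 in each library, 1 being the highest pileup. At 125 members (27.9%) the 3 WT and the 3 A384T positions did not overlap. Over the 953 regions present in all 6 full lists the same was true of 26.7%. The share among the members is close to this and is no result about the members. The 953 hold all 448 members, so part of this closeness is built in. Of the 125, 53 stood higher in every WT library (11.8%, against 14.2% of the 953) and 72 higher in every A384T library (16.1%, against 12.5%). Ranked among all 953, 46 of the 448 members stood higher in WT and 71 higher in A384T (26.1% together). Of the 505 other regions it was 89 and 48 (27.1% together). This difference between members and other regions was not tested. The split among the members depended on the measure. By -log10 q it was 59 members (13.2%, against 13.4% of the 953) and 54 (12.1%, against 11.3%), together 113 (25.2%, against 24.8%). By fold enrichment it was 38 (8.48%, against 8.29%) and 34 (7.59%, against 7.56%), together 72 (16.1%, against 15.8%). All 3 measures placed 18 members higher in WT (4.02%, against 3.88% of the 953) and 19 higher in A384T (4.24%, against 4.51%), and at 0 members did pileup and fold enrichment give opposite calls. Fold enrichment and -log10 q are made from pileup, so the 3 measures are not independent. With the replicate numbers as blocks the call asks only that the 3 pairs of one number all differ in the same direction, a weaker condition. It held at 262 members (58.5%), against 56% of the 953. Leaving out a library changes both the set of regions and the number of positions compared. Without WT replicate 1 such positions were found at 190 of 467 regions (40.7%, against 40% of the regions in the other 5 full lists), and without A384T replicate 1 it was 222 of 631 (35.2%, against 35.1%).

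Members that stood higher in WT included the longest one. The region chr18:75526154-75528102 was 1949 bp long, which is the width of its WT replicate 1 peak. Its peaks in the other libraries were 197 to 1234 bp wide. At this region the pileup was 255, 83.6 and 133 in WT and 126, 85.2 and 35 in A384T. Its mean position was 58.0 ± 37.7 in WT and 387 ± 49.9 in A384T (mean ± SD, n = 3), but its positions by fold enrichment overlapped between genotypes. At chr4:8738156-8738589 the pileup was 242, 79.2 and 98 in WT and 115, 71.0 and 37 in A384T, with positions of 99.7 ± 35.8 and 427 ± 9.54 (mean ± SD, n = 3). Here positions by fold enrichment gave the same order, at 120 ± 92.4 in WT and 365 ± 61.8 in A384T (mean ± SD, n = 3). The folds themselves overlapped, with 35.3, 24.8 and 26.2 in WT and 28.6, 12 and 7.65 in A384T.

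Another 3 completed the 5 with the widest difference towards WT, and all had the same order of positions by fold enrichment and by -log10 q. The pileup at chr19:53539127-53539705 was 253, 113 and 112 in WT and 140, 100.4 and 48 in A384T. That region was at position 52.0 ± 26.9 in WT and 299 ± 48.7 in A384T (mean ± SD, n = 3). At chr11:109287288-109287685 the positions were 95.8 ± 33.7 and 337 ± 106, and at chr3:60319867-60320737 they were 168 ± 57.2 and 401 ± 56.7 (mean ± SD, n = 3). The wide spread in A384T at the chromosome 11 region came from replicate 1, which placed it at 214 where the other two placed it at 402.5 and 394.

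In the other direction the widest difference was at chr7:80682526-80683296. Its pileup was 148, 38.7 and 65 in WT and 268, 202 and 121 in A384T. It stood at position 364 ± 60.6 in WT and 17.3 ± 11.5 in A384T (mean ± SD, n = 3), among the strongest members of one genotype and the weaker ones of the other. Fold enrichment there was 21.6, 5.67 and 8.84 in WT and 34.2, 33.1 and 23.7 in A384T. These values did not overlap, but each list has a scale of its own. At chr2:29979763-29980290 the pileup was 185, 42.2 and 53 in WT and 263, 136 and 108 in A384T, and the positions were 331 ± 109 and 52.8 ± 43.0 (mean ± SD, n = 3). The wide spread in WT came from replicate 1, which placed it at 206 where the other two placed it at 401 and 387.

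The remaining 3 of the 5 towards A384T were on chromosomes 11 and 12. At chr11:99099807-99100245 the pileup was 136, 36.9 and 48 in WT and 202, 116 and 70 in A384T, for positions of 418 ± 20.1 and 138 ± 42.8 (mean ± SD, n = 3). At chr12:87027286-87027794 it was 118, 39.6 and 49 in WT and 170, 129 and 59 in A384T, for positions of 426 ± 13.8 and 178 ± 55.8 (mean ± SD, n = 3). The region chr11:87558441-87558812, at 387 ± 43.8 in WT and 133 ± 41.5 in A384T (mean ± SD, n = 3), kept its order by -log10 q but overlapped by fold enrichment. Both directions thus held regions whose order was the same by all 3 measures, which share the pileup, and regions for which it was not.

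**Figure D4:**
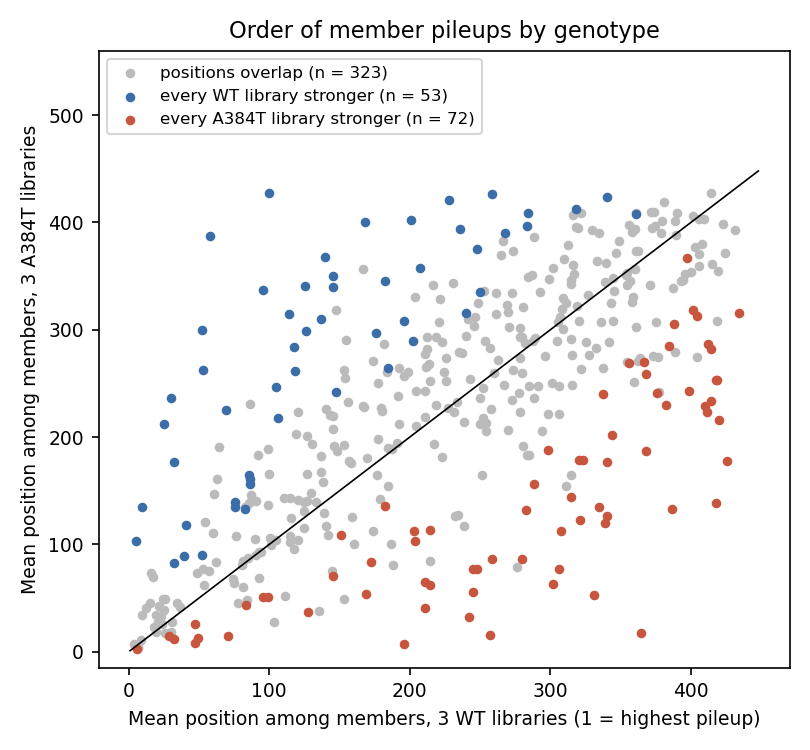
Mean position by pileup of each member in the 3 WT libraries (horizontal) and the 3 A384T libraries (vertical), from 1 for the highest pileup to 448. Blue points are the 53 members that stood higher in every WT library, red points the 72 that stood higher in every A384T library, and grey points the 323 whose positions overlapped.

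Other features of the members were set beside the order of their positions. The median region length was 603 bp for the 53, 607 bp for the 72 and 593 bp for the 323 with overlapping positions. Their median control background was 3.47, 3.75 and 3.76. The distance between the outermost summits had medians of 47, 39 and 44 bp. They were spread over 18, 19 and 19 of the 19 chromosomes. Their median of the mean rank was 419, 367 and 440. Of the 53, 28.3% lay within 50 kb of another member, against 18.1% of the 72 and 25.1% of the 323. None of these differences was tested.

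Peak summits, the points of highest pileup, fell at nearly the same place in all libraries. All 6 summits lay within 50 bp at 264 members (58.9%) and within 100 bp at 400 (89.3%), with a median of 43 bp between the outermost ones. In the 505 other regions present in all 6 full lists, which have lower pileups in at least 1 library, the median was 63 bp and 36.8% had all summits within 50 bp. For single pairs of libraries the median distance was 11 to 19 bp, and the pair with the shortest was WT replicate 1 with A384T replicate 1. The mean distance was 27.4 bp within and 29.6 bp between genotypes, a difference of -2.22 bp with p = 0.1 in an exact permutation test over the libraries (one-sided), the lowest p that 3 against 3 can give. With the replicate numbers as blocks the one-sided exact permutation p was 0.25, the lowest that such blocks allow. With medians in place of means the difference was -0.167 bp (exact p = 0.5), and without A384T replicate 3 it was -0.606 bp (exact p = 0.5). Without WT replicate 2 it was -5.05 bp (exact p = 0.1), and without each of the other 4 libraries it was -3.29 to -2.37 bp (exact p = 0.1 to 0.3). Within the 49 bp libraries the means were 27.8 and 30.2 bp.

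**Figure D5:**
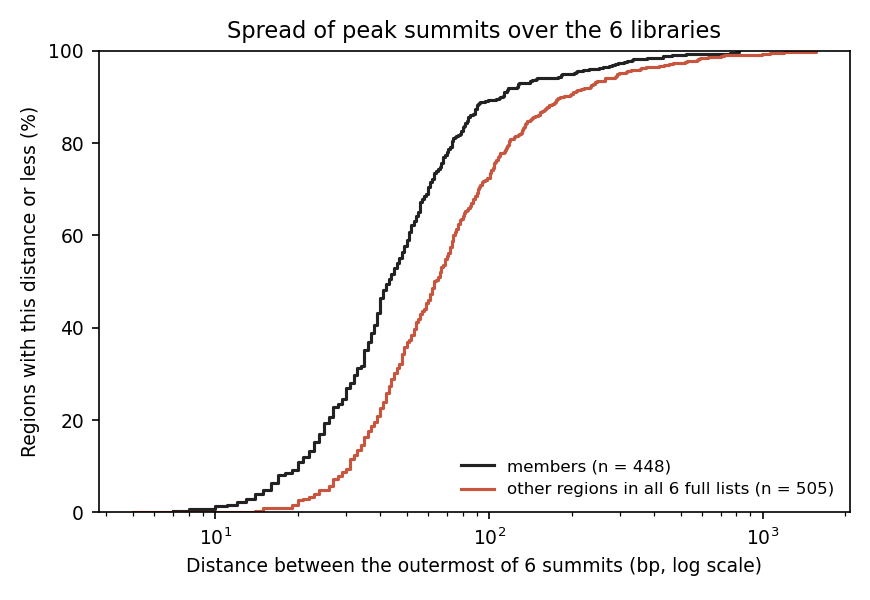
Cumulative share of regions (vertical, %) by the distance between the outermost of the 6 summits (horizontal, bp, log scale), for the 448 members and the 505 other regions present in all 6 full lists. The curve of the members lies to the left, reaching 58.9% at 50 bp against 36.8%.

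Summits more than 300 bp apart occurred at 12 members, and in 8 of these a single library stood away from the rest. At chr2:156005119-156006345 the summit was 854, 875 and 967 bp from the start of the region in WT and 863, 841 and 169 bp in A384T. A384T replicate 3 thus had its highest point at the other end of the region, where WT replicate 3 and A384T replicates 2 and 3 called 2 peaks. At chr7:52104087-52105470, WT replicate 2 and A384T replicate 3 peaked at 1242 and 1229 bp and the other 4 libraries at 422 to 514 bp. Libraries of different genotype shared the odd position there. At chr11:54615267-54616119, WT replicates 1 and 2 peaked at 230 and 248 bp and the other 4 at 512 to 541 bp.

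Summits of the WT libraries all lay to one side of all A384T summits at 56 members (12.5%). Over the 953 regions of the full lists this share was 13.7%, so it was not higher among the members. The separation was 20 bp or more at 12 members (2.68%, against 3.67% of the 953) and 50 bp or more at 6 (1.34%, against 1.36%), and these 6 are named here because of their values. It was widest at chr9:32735749-32737220, where the WT summits lay 394, 419 and 418 bp and the A384T summits 614, 590 and 559 bp from the start of the region. At chr11:52127441-52128255 the order was the opposite, with 493, 491 and 517 bp in WT and 307, 367 and 330 bp in A384T. At chr8:112089447-112090202 the WT summits were at 218 to 264 bp and the A384T summits at 362 to 397 bp. The other 3 were chr13:113214745-113215788, chr12:55839031-55839854 and chr1:185811499-185812007, with gaps of 79, 58 and 54 bp between the nearest summits of the 2 genotypes.

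Peak widths varied widely between libraries of one genotype. The joined regions were 273 to 1949 bp long with a median of 602 bp, and 54 were 1 kb or longer. The median peak width at members was 564, 238 and 305 bp in WT and 491, 366 and 243 bp in A384T. The means were 369 ± 172 bp and 367 ± 124 bp (mean ± SD, n = 3), a difference of -2.17 bp between A384T and WT that was smaller than the SD of either genotype (exact permutation test, two-sided, p = 1). The sign turned to 97.3 bp when WT replicate 1 was left out and to 60.3 bp when A384T replicate 3 was, and it was 33 bp within the 49 bp libraries. Only 23 members held more than 1 peak of some library. This happened at 17 members in WT replicate 2 and at 2 in each replicate 1 library, whose peaks were the widest.

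Some members lay close to another member. With a gap of at most 50 kb between neighbours, 109 members (24.3%) fell into 49 runs, of which 40 were pairs, 7 held 3 members and 2 held 4. The median gap between neighbouring members was 2012 kb. A run of 4 on chromosome 9 from 61517554 to 61556086 covered 38.5 kb and ended in one of the 10 best-ranked members. Its first 2 members had overlapping positions and its last 2 stood higher in every A384T library. At chr9:61550077-61550793, among the last 2, the summit of WT replicate 2 lay 107 bp from the start of the region. The other libraries peaked there at 517 to 538 bp, so the WT replicate 2 position belongs to another summit. The other run of 4, on chromosome 11 from 87256257 to 87285179, covered 28.9 kb and had fold enrichment of 5.21 to 19.9, with medians of 12.6, 6.78 and 9.86 in WT and 13.7, 10.3 and 6.47 in A384T. A run of 3 on chromosome 12 from 55811050 to 55839854 was similar, with fold enrichment of 4.03 to 20.4. Runs on chromosome 9 from 32717762 to 32737220 and on chromosome 17 from 84712686 to 84732937 each had 2 of 3 members higher in every WT library, and fold enrichment reached 55.5 and 70.7 in them. In 5 of the 49 runs at least 2 members differed in order by genotype, in one direction in 4 of them and in both in 1. Of all members 27.9% differed so, against 26.7% of the 953 regions in all 6 full lists. How many such runs this share alone would give was not tested, so the count is no result about the runs.

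Other peaks, stronger or weaker, were common around the members. Another peak of the same full list lay within 10 kb of 71.0, 28.3 and 39.1% of the members in WT and of 66.7, 50 and 24.6% in A384T. Around the other regions of each reduced list the shares were 66.1, 34.3 and 43.2% in WT and 48.1, 48.8 and 19.1% in A384T. The share was higher at members in 4 of the 6 libraries, and lower in WT replicates 2 and 3. It was highest in the replicate 1 libraries, which have the longest full lists, and lowest in WT replicate 2 and A384T replicate 3, which have the shortest.

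By chromosome the members were spread like the regions they came from. Chromosome 2 held 39 members, chromosome 1 held 38 and chromosome 10 held 37, and chromosomes 18 and 19 held 12 each. As a share of the regions of the reduced lists on the same chromosome, members ranged from 9.66% on chromosome 5 and 9.92% on chromosome 19 to 16.2% on chromosome 9.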

How the data were processed

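Peaks were called by the authors with MACS 2.1.0.20140616, on each ChIP library against its own control library, at a q-value cutoff of 1e-10 with 1 tag kept per position and strand, per the file headers. Bowtie2 and mm9 are named in the submitters' processing notes. The deposited lists give pileup (a signal value), fold enrichment (a ratio), -log10 p-value and -log10 q-value per peak, all the authors' own values. Chromosomes X and Y and unplaced sequences were left out by the rule. Absence from a list means only that no peak passed the cutoff, not that FoxP3 was not bound.

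Lists were reduced and joined as described above, and the strongest peak of a library stood for it in a region. Control background was (pileup + 1) / fold enrichment - 1, which inverts the peak caller's ratio. Summit distance and width were tested by exact permutations over the libraries. The planned permutation test of pileup order was not used, since pileup chose the members. Python 3.11.15, numpy 2.4.6, pandas 2.3.3, scipy 1.17.1 and matplotlib 3.10.9 were used, and the counting was tested on simulated lists. Replicate numbers were taken to pair the libraries: deviations of log2 pileup from the genotype mean correlated at 0.75, 0.34 and 0.56 for numbers 1, 2 and 3. Between different numbers the correlations ran from -0.57 to 0.12. The labels do not state this pairing. It rests on the pileup that chose the members, and number 1 is also that of the 51 bp libraries, so paired samples are not established. Blocks permute within numbers and cannot give a one-sided p under 0.25.

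Named regions are the 10 of highest mean rank by pileup, the 5 of widest difference in position in each direction, the 3 on either side of the limit and the 5 of highest control background. The other 5 of high background, the runs and the regions with separate summits were picked by their values. The members and the lists of regions were chosen with earlier results of these data known. The gene and promoter tables used here are of a later build than the peaks, so no gene, motif or sequence is given, and the planned motif shares and gene list counts were not analysed here.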

Additional observations from a re-analysis of the deposited data

Results flagged for a closer look

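Chromosome X, which the rule leaves out, had peaks as strong as those kept. At or above the pileup of the last peak kept in the same list, the WT libraries held 18, 19 and 16 peaks on chromosome X and the A384T libraries 15, 15 and 14, in replicate order. These peaks are listed because they lie outside the chromosomes compared, and the fewest in a library was 14. Joined in the same way, 2 regions on chromosome X had such a peak in all 6 libraries. At chrX:67638513-67639423 fold enrichment was 71.1, 14.1 and 30.2 in WT and 76.8, 28.2 and 35.6 in A384T. At chrX:74754463-74754843 it was 61.6, 11.1 and 20.1 in WT and 64.1, 64.3 and 28.8 in A384T. On chromosome Y the same limit left 29 peaks in WT replicate 2, 1 in WT replicate 3 and 0 in the other 4 libraries, and no region in all 6.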

How the results depend on the processing

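Of 70 alternatives to 7 results, 58 kept the direction or stayed within 1.5 times the count or within the spread. Another 9 moved the value and 3 reversed its sign, and 7 of the 70 were chosen after seeing the data. The 58 are not independent checks. For pileup order, summit distance and width the replicate block changes only the p, so it could not move the value. Joining by an overlap of 50% of the shorter peak returned the same 448 regions and so the same values. The count of 448 regions was 286 with lists of 1000 peaks, 136 with 500 and 953 with full lists, and 463 to 631 with each library left out in turn. Lists cut by -log10 q gave 463 regions, of which 372 were among the 448, and lists cut by fold enrichment gave 306, of which 213 were. The 125 regions with positions that did not overlap (27.9%, against 26.7% of the 953) became 72 by fold enrichment (16.1%, against 15.8%). With lists of 1000 peaks there were 80 of 286 (27.97%), for which no matching share was computed. The weaker condition of the replicate block, 3 pairs differing in the same direction, held at 262 (58.5%, against 56%). With each library left out the count was 169 to 222 of 463 to 631 regions (32.5 to 40.7%, against 33.6 to 40% of the regions in the same 5 full lists). The width difference of -2.17 bp turned to 1 bp where only members with 1 peak in every library were kept, and ranged from -77.7 to 97.3 bp with each library left out. The replicate block gave a one-sided exact p of 0.25 for the summit distance (-2.22 bp), the smallest it allows, and p = 1 for the width. The share of members with a neighbouring peak, 46.6% on average at 10 kb, was 68.9% at 50 kb. Motif shares and gene lists were not run. The number of libraries limits every test between genotypes, since 3 against 3 cannot go below 0.1.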
